A study of Mus musculus with 16 samples.

Results

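The clustered protocadherin genes of the mouse are a run of similar genes on chromosome 18 that falls into 3 clusters, alpha, beta, and gamma. Members were taken as the protein-coding genes of that chromosome in the GENCODE vM21 annotation (mm10) whose names start with Pcdha, Pcdhb, or Pcdhg. This gave 57 of the 21938 protein-coding genes of the 21 chromosomes (Y included), of which 14 belong to the alpha, 22 to the beta, and 21 to the gamma cluster. The rule itself used names and positions and no measured value.

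Clustered protocadherins are adhesion proteins of the cell surface, best known from neurons, where each cell uses a small and largely random selection of them and cells that carry matching sets recognize each other. Each alpha and gamma transcript starts at its own promoter with a large variable first exon, which is spliced to exons that all members of the cluster share, whereas a beta gene is complete in its own single exon. In neurons the choice depends on CTCF, cohesin, DNA methylation, and the repressive mark H3K9me3. The 5 C-type members (Pcdhac1, Pcdhac2, Pcdhgc3, Pcdhgc4, and Pcdhgc5) lie at the distal ends of their clusters and are known to be used more constitutively.

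The study's main findings concern the viability and growth of embryos whose parents lack H2A.B, a short histone H2A variant. The paper reports its expression in male meiosis and, at a lower level, in female meiosis. As 1 part, the study asked how the loss of H2A.B changes chromatin in postmeiotic male germ cells. Libraries came from haploid spermatids of 2 sibling pairs of non-mated 2-month-old males, each with 1 H2A.B KO male, in which all 3 H2A.B genes of chromosome X carry deletions made with CRISPR, and 1 WT male. Cells were sorted live by DNA content with Hoechst and propidium iodide. AutoCUT&RUN, in which an antibody directs a nuclease to its target and the released DNA is sequenced, was run for H3K4me3 (active promoters), H3K27me3 (Polycomb-repressed regions), H3K9me3 (heterochromatin), and IgG, which made 16 libraries in 8 groups of 2. Libraries are named by genotype and replicate. KO 1 and WT 1 were taken as 1 sibling pair and KO 2 and WT 2 as the other, which the labels do not state. The lines are constitutive KOs, so every cell type of the testis lacked H2A.B, and with 2 animals per genotype an exact permutation test between KO and WT cannot give a p below 0.333.

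Fragments of a library with the same coordinates were counted as 1 distinct fragment. Distinct fragments numbered 784360 to 3394830 for H3K4me3, 200457 to 3806026 for H3K27me3, 5009169 to 6746382 for H3K9me3, and 159611 to 270598 for IgG, and the lowest H3K27me3 value was that of WT 2. A level is the number of distinct fragments whose midpoint lies in a region, per kb and per 1000000 distinct fragments of the library. On this scale the average over the genome, chromosomes X and Y included, is 0.367. Autosomes held 58.8% to 63.8% of the distinct fragments of H3K9me3, against 96.2% to 99.1% for H3K27me3 and 90.3% to 95.1% for H3K4me3. For H3K9me3 the average over the autosomes alone is thus lower than the genome average used here. At the starts of spermatid marker genes such as Tnp1 and Acrv1, mean H3K4me3 was above the median of all genes (1.91) for 9 of 10, all but Prm1 (1.07). The summed level of the 10 ranged from 6.12 to 8.60 over the 4 libraries. None of 5 Sertoli, 5 Leydig, 5 spermatogonial, and 4 blood and endothelial markers was above that median in its mean. The spermatogonial marker Kit came nearest, with a mean of 1.745 and 3.825 in its highest library. The summed levels of these lists, in the order given, reached at most 0.445, 0.177, 1.02, and 0.319. Wt1, Cldn11, Cyp17a1, Cyp11a1, and Pecam1 were among the markers at 0 in the 4 libraries. Over the 3 H2A.B genes, 19 fragments fell in the 8 KO and 16 in the 8 WT libraries. These counts include bases outside the deletions and do not check the genotypes, which were taken from the labels.

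The members span chr18:36930184-37841873 in mm10, a stretch of 911.7 kb or 1.01% of the chromosome, and all lie on the + strand. Neighboring starts were 7323 bp apart in the median within the alpha cluster, 7781 bp within the beta cluster, and 5346 bp within the gamma cluster. The alpha genes (36930184 to 37187661) and the gamma genes (37661793 to 37841873) have 4 exons in the transcript used here, and the 22 beta genes (37264938 to 37524479) have 1. In this annotation 2 genes carry the name Pcdha11, and both were kept as members. First exons were 2346 to 3028 bp long in alpha, 2588 to 8695 bp in beta, and 2542 to 2961 bp in gamma, against a median of 227 bp over all genes. The exons of Pcdhb21 and Pcdhb22 overlap by 455 bp, so fragments there counted for both.

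The 3 clusters also differed in base composition. The ratio of observed to expected CpG in first exons had a median of 0.665 in alpha, 0.386 in beta, and 0.533 in gamma, and the median GC content was 53.1%, 46.0%, and 52.6%. Because the reads were 25 bases long and the genes resemble each other, the share of 25-base words of each first exon that occur once in the genome was counted. Its median was 76.7% in alpha, 86.3% in beta, and 94.8% in gamma, and the lowest member was at 56.7%. Reads within repeated words could have been placed on another member, so the alpha values are the least certain in the median, though not for each gene. The alpha genes Pcdhac1 and Pcdhac2 were at 99.96% and 100%. Among the genes named below, the lowest were Pcdha7 (56.7%), Pcdha8 (63.0%), Pcdhb12 (71.0%), Pcdha1 (71.9%), Pcdha12 (73.15%), and Pcdhb8 (73.6%). They were followed by Pcdhgb2 (74.7%), Pcdha5 (75.6%), Pcdhb9 (75.75%), Pcdhgb4 (76.5%), and Pcdha2 (77.8%). The lowest of the start windows was that of Pcdhgb4, at 66.9%.

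Seen as 1 region, the locus was rich in all 3 marks and not in IgG. It held 7.97 ± 1.02 times the genome average of H3K27me3 (SD, n = 4 libraries), 3.07 ± 0.566 times that of H3K9me3, and 2.52 ± 0.150 times that of H3K4me3, against 1.08 ± 0.154 times for IgG. For H3K27me3 the values were 8.40 in KO 1, 6.97 in KO 2, 7.32 in WT 1, and 9.20 in WT 2, so the genotypes overlapped. With 1.01% of its length, the locus took 7.06% to 9.59% of the H3K27me3 fragments of chromosome 18, 6.24% to 9.85% of those of H3K9me3, and 2.76% to 3.14% of those of H3K4me3, but 1.07% to 1.43% of those of IgG. These 4 libraries join both genotypes, and their spread is that between animals and between the 2 replicate sets. Because each library pools many cells, a mark on fewer cells and less of the mark per cell cannot be told apart.

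Both repressive marks were unevenly spread over this region. Each cluster interval here ran from the start of its first gene to the end of its last first exon. The gap between alpha and beta thus included the end of the alpha genes, with their shared exons. The end of the gamma genes, with theirs, lay in no interval. H3K27me3 was 10.4 times the genome average over the alpha interval and 21.3 times over the gamma interval, but 4.82 times over the beta interval, 1.70 times over the gap between alpha and beta, and 0.877 times over the gap between beta and gamma. H3K9me3 was 4.58 times the average over the beta interval and 3.05 and 3.49 times over the gaps, but 2.09 times over alpha and 1.93 times over gamma. Of 183 bins of 5 kb, 74 were above 3 times the genome average for H3K27me3 and 81 for H3K9me3. Of them, 28 were above it for both, which is 37.8% of the former and 34.6% of the latter. Another 46 were above it for H3K27me3 alone, 53 for H3K9me3 alone, and 56 for neither. Whether 28 differs from the overlap that 74 and 81 of 183 bins would give without any relation was not tested. For H3K9me3 the cut is stricter when seen against the autosomes, whose average is below the genome average. Over the 183 bins, Spearman's rank correlation between the 2 marks was -0.06. Before the first alpha gene, the bins from -50 to -15 kb had H3K9me3 between 2.17 and 6.07, and those at -30 and -25 kb (6.07 and 4.92) were above each bin of the locus, whose highest was 4.57.

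**Figure D1:**
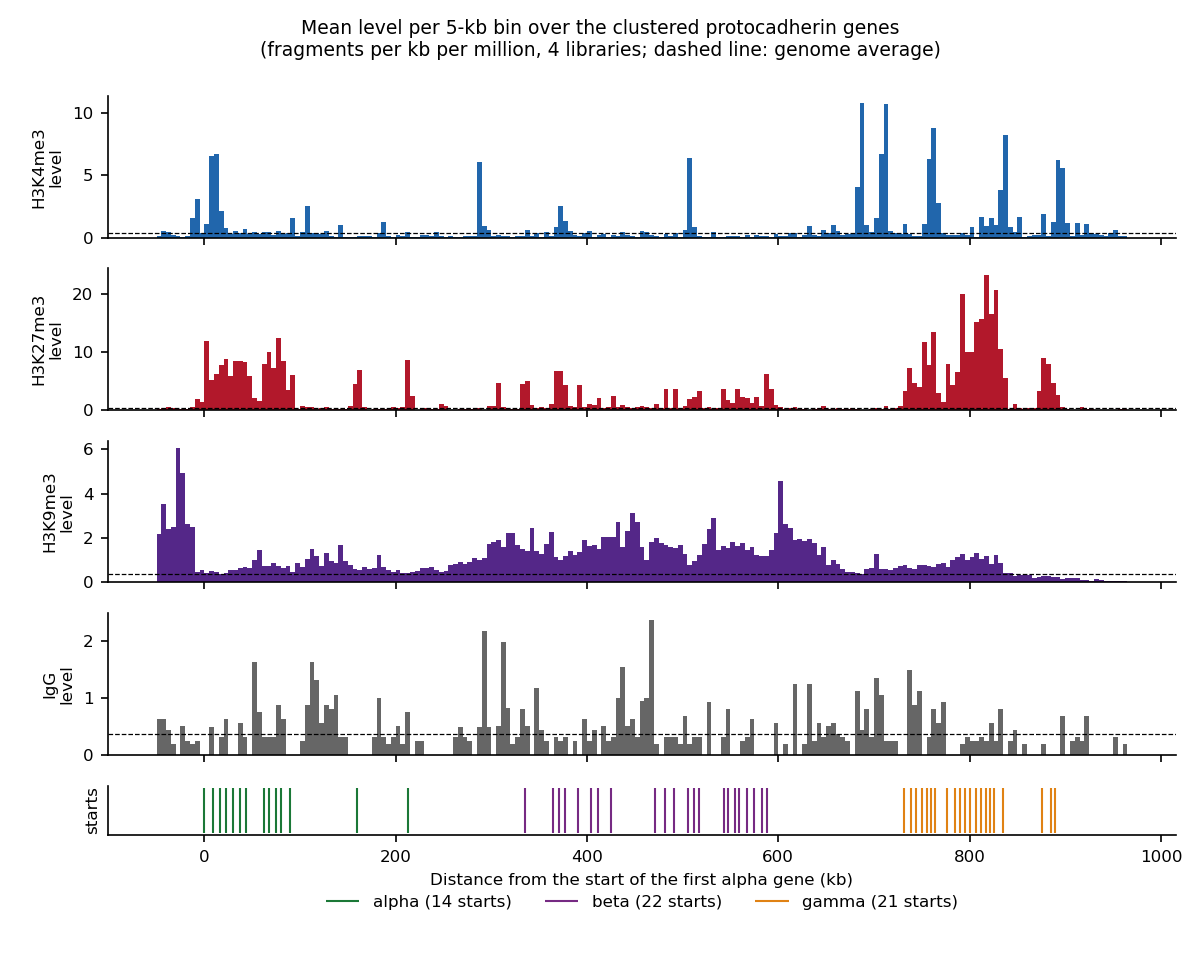
Mean level in 5-kb bins (fragments per kb and 1000000, 4 libraries per target) against the distance in kb from the start of the first alpha gene, with the genome average of 0.367 as a dashed line and the gene starts below. H3K27me3 forms blocks over the alpha and gamma starts and peaks at 23.3, H3K9me3 forms a broad rise over the beta starts and a higher one before the first alpha gene (up to 6.07), H3K4me3 stands in a few narrow bins of up to 10.8, and IgG has no such blocks.

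H3K27me3 lay on nearly every member, highest on the alpha and gamma genes. The first-exon level summed over the 57 members was 8.43 in KO 1, 6.76 in KO 2, 7.57 in WT 1, and 8.98 in WT 2, against 0.0809 to 0.514 in the IgG libraries. The mark was higher than IgG by 4.90 on the log2 scale (with 0.5 fragments added) in first exons and by 4.7 in windows of 500 bp on each side of the start, in 4 of 4 animals, with an exact two-sided permutation p of 0.0286, the smallest that 4 libraries against 4 can give. Paired by animal, the smallest possible p is 0.125, and both values had it.

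Gene by gene, a quasi-Poisson test over all genes with at least 10 fragments found H3K27me3 above IgG (adjusted p under 0.05) in the first exons of 55 of the 57 members, where 57.5% of the 4072 genes tested were called, and in the start windows of 43 of the 51 members tested, where 78.1% of 5661 genes were. Member first exons are at least 2346 bp long, against a median of 227 bp over all genes, so exon shares compare unlike lengths. Start windows are of equal length in all genes. The 10 fragments were counted over the mark and IgG libraries together. An IgG library had 4 to 15 fragments over the 57 first exons and 2 to 5 over the start windows. Members thus entered the test mainly through the mark that was then called higher. Windows with too little of it were not tested, so 43 of 51 leaves them out. All 14 alpha and 21 gamma first exons passed, and 20 of 22 beta ones. The 2 that did not were Pcdhb9 and Pcdhb16. In the start windows, the 8 members that were tested and not called were beta genes, among them Pcdhb18 and Pcdhb20. With the animal as a block, 0 first exons passed (54 at an unadjusted p under 0.05, against 38.6% of all genes) and 21 of 51 windows (44.6% of all genes). Of all genes tested, 88.9% of the exons and 82.7% of the windows had no IgG fragment at all, and the part of this in the loss of calls was not tested.

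The highest H3K27me3 levels were among the variable gamma genes from Pcdhgb4 to Pcdhga11. There Pcdhga10, Pcdhga11, Pcdhgb4, and Pcdhgb7 were among the 8 highest members in 4 of 4 libraries (the latter 2 are named after their values were seen). The last variable gamma gene, Pcdhga12, was lower, with a start-window level of 8.23 ± 2.85 (SD, n = 4) against a median of 15.8 over the gamma genes. Pcdhga10 had first-exon levels of 28.7 in KO 1, 20.4 in KO 2, 21.3 in WT 1, and 38.2 in WT 2, the shallowest of these libraries. For Pcdhga11 the levels were 25.5, 25.6, 21.8, and 26.5 in the same order. Pcdhgb4 had 24.02, 15.98, 21.98, and 33.3, so the libraries of the 2 genotypes overlapped for each of the 3 genes. In the alpha cluster, Pcdha1, the first gene of the locus, was highest with 18.6 ± 3.93 (SD, n = 4) and Pcdha12 lowest with 9.92 ± 5.38. In the beta cluster, the levels ran from 11.1 ± 2.34 for Pcdhb2 and 10.4 ± 1.71 for Pcdhb1, at its proximal end, to 1.53 ± 0.699 for Pcdhb9 and 1.24 ± 0.425 for Pcdhb16. The C-type gene Pcdhgc5, the last of the locus, was the lowest gamma gene at 2.46 ± 0.609.

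Between clusters, alpha and gamma first exons did not differ in H3K27me3 beyond the spread, with a log2 difference of 0.01 that ran from -0.06 to 0.07 over the 4 libraries (exact p 0.625). In start windows the alpha level was 11.7 in KO 1, 7.33 in KO 2, 9.96 in WT 1, and 11.1 in WT 2, and the gamma level was 16.6, 14.5, 12.7, and 18.8 in the same order. There gamma was above alpha in each library and the 2 clusters did not overlap, unlike in first exons. Beta was below both in 4 of 4 libraries, by 1.65 on the log2 scale against alpha (range 1.36 to 1.92) and by 1.64 against gamma (1.41 to 1.88). An exact sign-flip permutation test over 4 libraries cannot give a p below 0.125, and these 2 differences had it (adjusted p 0.141 over 9 comparisons of clusters). Around the starts, the gamma mean was highest in the first 250 bp of the gene, at 17.4 ± 2.08 (SD, n = 4), whereas the alpha mean peaked at 17.8 ± 6.31 from 750 bp into the gene and the beta mean at 6.99 ± 1.31 from 1500 bp.

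**Figure D2:**
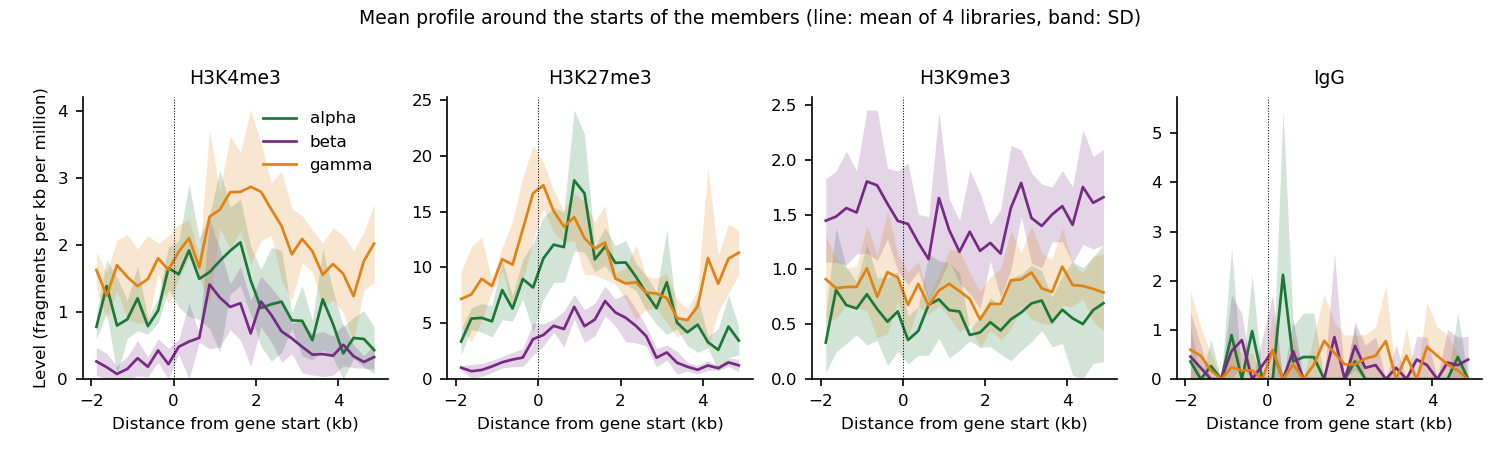
Mean level around the starts of the members in bins of 250 bp (x axis: distance from the gene start in kb), 1 panel per target with its own scale, as the mean (line) and SD (band) of 4 libraries for the alpha, beta, and gamma genes. H3K27me3 peaks at the start of gamma genes (17.4) and 750 bp into alpha genes (17.8), and H3K4me3 is highest past the start at up to 2.87. Beta H3K9me3 lies between 1.09 (500 bp into the gene) and 1.80 (1000 bp before the start), above that of the other clusters. IgG stays at or below 2.12 with wide bands.

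Of the 3 clusters, H3K9me3 was highest over beta. It was not concentrated on the genes, as its mean level was 1.68 over the beta interval, 1.41 in beta first exons, and 1.43 in beta start windows. Over the whole locus its fold over the genome, X and Y included, was below that of H3K27me3 (3.07 against 7.97). Over the beta interval the 2 folds were close (4.58 and 4.82), as were the shares of chromosome 18 fragments in the locus (6.24% to 9.85% against 7.06% to 9.59%). The summed first-exon level of the beta members was 1.26 in KO 1, 1.93 in KO 2, 1.04 in WT 1, and 1.42 in WT 2, higher in replicate 2 in both genotypes. The alpha members had 0.320, 0.796, 0.328, and 0.641 in the same order, and the gamma members 0.576, 0.998, 0.523, and 0.827. Beta exceeded gamma by 0.96 on the log2 scale (range 0.77 to 1.13) and alpha by 1.51 (1.14 to 1.97), each in 4 of 4 libraries and with the smallest exact p of the design, 0.125. Among the start windows, 57 of 57 members were above the median of all genes (0.0813) and 49 were in the top 10% (above 0.426), namely 22 of 22 beta, 19 of 21 gamma, and 8 of 14 alpha genes.

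Within the beta cluster, Pcdhb9 had the highest first-exon level of H3K9me3, with 2.09 in KO 1, 2.87 in KO 2, 1.49 in WT 1, and 2.03 in WT 2. Pcdhb18 followed at 1.76, 2.16, 1.26, and 1.74. Pcdhb12 was the lowest beta gene, at 0.342, 1.20, 0.214, and 0.658. Among gamma genes the level ran from 1.31 ± 0.360 for Pcdhga10 and 1.23 ± 0.210 for Pcdhga9 to 0.2999 ± 0.219 for Pcdhgc4 and 0.296 ± 0.157 for Pcdhgc3, and among alpha genes from 0.775 ± 0.303 for Pcdha9 to 0.306 ± 0.103 for Pcdha12 (SD, n = 4). The 5 C-type members together had 0.364 ± 0.183, near the genome average of 0.367, which includes X and Y and is above that of the autosomes.

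Against IgG, the summed H3K9me3 level of the members was higher by 1.93 on the log2 scale in first exons and by 1.38 in start windows (exact permutation p 0.0286 for each, and 0.125 paired by animal). With every deposited fragment counted, these values were 1.41 and 1.001, with p of 0.0857 and 0.0571. The IgG libraries had between 4 and 15 fragments over the 57 first exons, and the part of this in the tests of single genes was not tested. Against the same IgG libraries, 55 of 57 first exons were called for H3K27me3. The quasi-Poisson test called 0 of 57 first exons and 0 of 50 start windows. At an unadjusted p under 0.05 there were 10 of the exons, against 52 of 981 genes, and 0 of the windows, against 169 of 2337 genes. Among all genes it called 0% of the 981 exons and 0% of the 2337 windows as higher. Limma-voom, which made false calls for this comparison on simulated data, called 5 first exons (0.917% of all genes tested were called higher). With every deposited fragment the quasi-Poisson test called 17 of 57 exons (6.73% of 2303 genes) and 9 of 53 windows (4.03% of 6184 genes). The exon shares again compare the long first exons of the members with mostly shorter ones.

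H3K4me3 lay mainly on a few members. Its summed first-exon level was 1.45 in KO 1, 1.59 in KO 2, 1.11 in WT 1, and 1.40 in WT 2, and 14 of the 57 members were above the median of all genes (1.76). When members were ranked within each library, 7 were among the highest 8 in 4 of 4 libraries, namely Pcdha2, Pcdhb12, Pcdhga4, Pcdhgb2, Pcdhga5, Pcdhga12, and Pcdhgc5. Their first exons make up 10.3% of the length and held 59.6% of the members' H3K4me3 fragments in KO 1 (95% Wilson interval 54.4% to 64.5%), 54.4% in KO 2 (51.3% to 57.5%), 55.3% in WT 1 (47.6% to 62.9%), and 52.1% in WT 2 (47.9% to 56.2%). The genes were picked by these values, so the shares are a description, and the intervals cover counting error only.

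Pcdha2, the second alpha gene, had first-exon levels of 12.5 in KO 1, 9.78 in KO 2, 6.63 in WT 1, and 6.60 in WT 2, and the genotypes did not overlap. Pcdhga12, the last variable gamma gene, had 10.5, 9.95, 5.60, and 8.52 in the same order, again without overlap. Pcdhb12, the highest beta gene, had 7.83, 8.93, 6.30, and 8.46, where they overlapped. In the model over all genes given below, which called 0% of them, Pcdha2 had a log2 change of 0.66 (SE 0.31) and Pcdhga12 one of 0.43 (SE 0.29), each with a limma-voom adjusted p of 0.974. Among the first exons tested, KO lay above WT without overlap in 26.1% of all genes and in 9 of 35 members. In start windows the direction was the other one. Pcdhga12 had 8.90, 7.95, 10.2, and 9.17 there, lower in KO without overlap (log2 change -0.20, SE 0.42), and Pcdha2 had 9.65, 5.89, 8.92, and 8.71, where the genotypes overlapped (-0.34, SE 0.44). Among start windows tested, WT lay above KO without overlap in 2 of 13 members (6.70% of all genes) and KO above WT in 2 of 13 (29.4%).

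Pcdhgb2, at 10.2 and 10.4 in the KO and 5.02 and 9.56 in the WT libraries, lies between Pcdhga4 and Pcdhga5, which were also high. Pcdhb3, the second highest beta gene, was uneven at 1.76, 5.60, 0.673, and 4.36, low in both libraries of replicate 1. At the other end, Pcdhac1, Pcdhb15, Pcdhb18, Pcdhga3, and Pcdhga9 had mean levels between 0.0282 and 0.0849. Pcdhb12 thus combined the highest H3K4me3 of the beta cluster with its lowest H3K9me3.

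**Figure D3:**
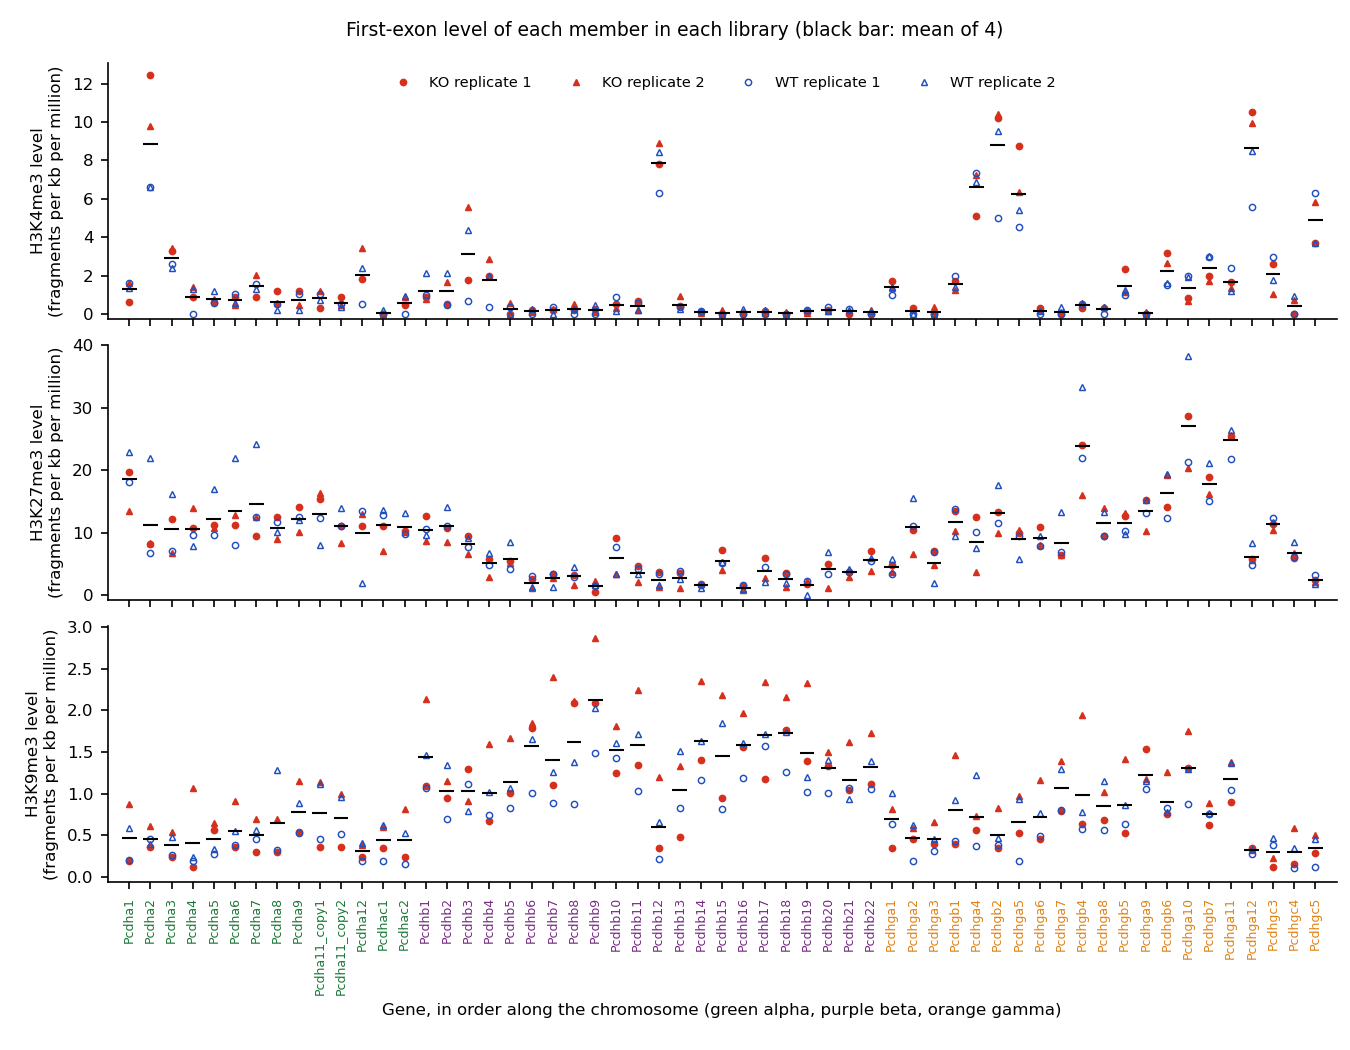
First-exon level (fragments per kb and 1000000) of H3K4me3, H3K27me3, and H3K9me3 for the 57 members in chromosomal order, as 1 symbol per library and a bar for the mean of 4. The same few genes, among them Pcdha2, Pcdhb12, and Pcdhga12, carry most H3K4me3 in each library, H3K27me3 rises to 27.1 at Pcdhga10, and the beta genes have the highest H3K9me3, with replicate 2 (triangles) mostly above replicate 1.

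H3K4me3 exceeded IgG in few members. Member first exons are longer than the median of all genes (at least 2346 bp against 227 bp), so the exon shares here compare unlike lengths, whereas start windows do not. In all, 5 members had more first-exon H3K4me3 than IgG in the quasi-Poisson test, out of 35 tested, where 2.75% of 7026 genes were called. They were Pcdhga12, with 210 fragments against 0 and thus at least 7.18-fold higher for a floor of 3 fragments over the IgG libraries, Pcdhb12 (195 against 0, at least 6.67-fold), Pcdha2 (174 against 0, at least 5.95-fold), Pcdhga4 (136 against 0, at least 4.65-fold), and Pcdhgc5 (99 against 0, at least 3.39-fold). Without 1 library at a time, 0 to 4 passed, and 0 without IgG KO 1, the deepest IgG library. In start windows, 4 of 13 members passed, against 63.6% of 11789 genes, namely Pcdha2, Pcdhgb2, Pcdhga5, and Pcdhga12, and 2 did without IgG KO 1. With the animal as a block, 0 passed in either region. Here too, the fragments of mark and IgG were counted together for the filter, so members entered the test mainly through H3K4me3.

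Summed over the members, H3K4me3 was higher than IgG by 2.38 on the log2 scale in first exons and by 1.75 in start windows, in 4 of 4 animals (exact permutation p 0.0286 for each, and 0.125 paired by animal). By cluster, in first exons, gamma was above alpha by 0.65 (range 0.46 to 0.79) and above beta by 1.90 (1.55 to 2.27). Alpha was above beta there by 1.26 (0.81 to 1.65). Each of these first-exon differences held in 4 of 4 libraries at the smallest exact sign-flip p of 0.125. In start windows, gamma was above alpha in KO 1, KO 2, and WT 2, but below it in WT 1 (1.58 against 1.91, from 26 and 21 fragments).

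The 2 highest H3K4me3 bins of the locus were not at members. By the intervals defined above, H3K4me3 was 4.225 times the genome average over the gap between beta and gamma and 4.16 times over gamma. It was 2.09 times over alpha, 1.16 times over beta, and 1.18 times over the gap between alpha and beta. The value of the whole locus thus rests in part on DNA outside the clusters. Of the 10 highest 5-kb bins, 7 held a member's first exon (Pcdha2 in 2 of them, and Pcdhb12, Pcdhga4, Pcdhgb2, Pcdhga5, Pcdhga12, and Pcdhgc5). Another 2 lay at the starts of Taf7, a subunit of the general transcription factor TFIID, and Slc25a2, a mitochondrial carrier, which sit between the beta and gamma clusters on the - strand. The bin at 685 kb from the first alpha start, with the highest level (10.8 ± 1.06, SD, n = 4), had no protein-coding start within 2500 bp. In start windows, Taf7 had a mean level of 13.4 ± 3.09 and Slc25a2 of 9.58 ± 2.26, and the highest of the 57 members 9.06, which is within the spread of Slc25a2.

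The 5 C-type members differed among themselves in first-exon levels. Pcdhgc5 carried H3K4me3 at 3.68 in KO 1, 5.84 in KO 2, 6.32 in WT 1, and 3.67 in WT 2, with H3K27me3 at 2.51, 2.14, 3.30, and 1.90 in the same order. It was the one C-type member with a higher H3K4me3 than H3K27me3 level in its first exon, in 4 of 4 libraries, but in its start window H3K27me3 was the higher in WT 2 (9.98 against 1.83, from 2 and 4 fragments). Pcdhgc3 had H3K27me3 at 11.5, 10.4, 12.4, and 11.7, and H3K4me3 at 2.60, 1.03, 2.98, and 1.79. In Pcdhac1, Pcdhac2, and Pcdhgc4, H3K27me3 was 11.2 ± 2.90, 10.9 ± 1.56, and 6.85 ± 1.21 (SD, n = 4), and mean H3K4me3 was between 0.0448 and 0.569. Levels of different antibodies are shares of their own libraries, so their sizes are not amounts of the marks.

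Levels of the 3 marks across members were compared by rank as a description, since members share libraries, base composition, and in part sequence. Over the 57 first exons, Spearman's rank correlation was 0.79 between H3K27me3 and the CpG ratio, -0.60 between H3K9me3 and the CpG ratio, and -0.81 between H3K9me3 and GC content. Within the alpha, beta, and gamma genes these values were 0.08, 0.70, and 0.55 for the first, 0.02, -0.44, and 0.08 for the second, and -0.14, -0.38, and -0.36 for the third. The rank correlation between H3K27me3 and H3K9me3 was -0.43, and its sign differed within the clusters. Within the 14 alpha genes it was 0.62 and within the 21 gamma genes 0.69, but within the 22 beta genes it was -0.49. H3K4me3 and H3K9me3 had -0.53 overall and -0.64 within beta. The order of the members repeated between libraries, with rank correlations from 0.73 to 0.86 for H3K4me3, 0.78 to 0.94 for H3K27me3, and 0.80 to 0.88 for H3K9me3 over the 6 pairs of libraries.

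**Figure D4:**
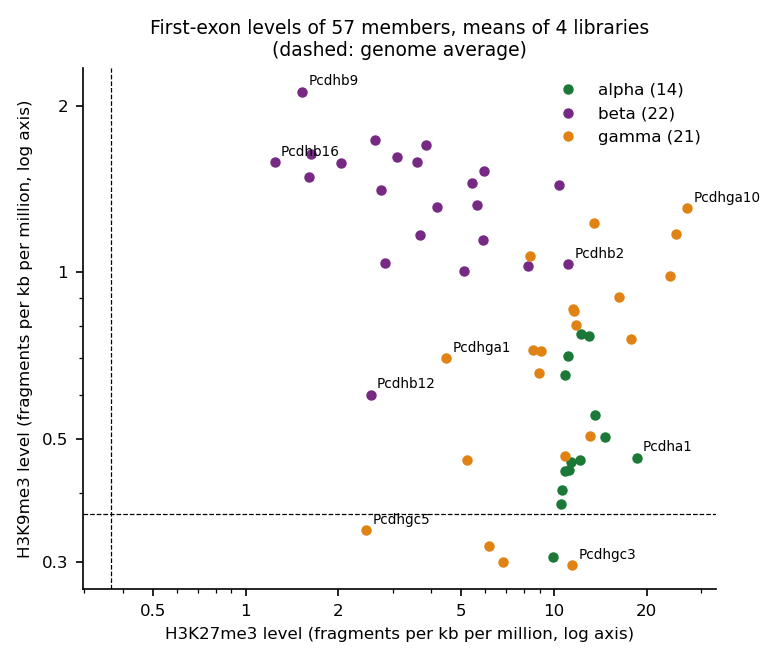
Mean first-exon level of H3K9me3 against that of H3K27me3 (fragments per kb and 1000000, 4 libraries, log axes) for 14 alpha, 22 beta, and 21 gamma genes, with the genome averages dashed. Most beta genes lie at higher H3K9me3 and lower H3K27me3 than the alpha and gamma genes, Pcdhb12 has the lowest H3K9me3 of the beta genes (0.602), and Pcdhgc5 has the lowest H3K27me3 of the gamma genes (2.46).

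Among other genes of the family, the 12 non-clustered protocadherins, which are single genes outside the 3 clusters (Pcdh1 and Pcdh12 lie past the gamma cluster on the same chromosome), had an H3K27me3 start-window level of 8.12 ± 3.25 (SD, n = 4) against 9.59 ± 1.44 for the clustered members. Their H3K9me3 was 0.177 ± 0.035, against 0.987 ± 0.304, and their H3K4me3 1.49 ± 0.388 against 1.23 ± 0.081. H3K27me3 passed against IgG in the start windows of 9 of the 9 tested (78.1% over all genes) and H3K4me3 in 0 of 5 (63.6% over all genes). These genes, too, entered the test mainly through the mark. At an unadjusted p under 0.05 the latter had 1 of 5, against 8467 of 11789 genes. Limma-voom called none of the tested ones between KO and WT for these marks. It had 0 windows at an unadjusted p under 0.05, against 4.04% of all genes for H3K4me3 and 2.54% for H3K27me3. Of 21 genes known to regulate the clusters, such as Ctcf, the cohesin subunits Rad21 and Smc3, Smchd1, and Setdb1, 13 were above the median of all genes in start-window H3K4me3. Ctcf had 6.38 ± 1.72 there, Rad21 10.3 ± 1.29, and Setdb1 5.13 ± 1.85. Of the 14 tested, 8 passed against IgG, where 63.6% of all genes did. Limma-voom called 0 of 14 between KO and WT, with 0 at an unadjusted p under 0.05, against 4.04% of all genes.

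No member passed the test between KO and WT in the model over all genes. Limma-voom with Benjamini-Hochberg adjustment called 0 of 13 H3K4me3 start windows and 0 of 35 first exons, where it also called 0% of the 11750 windows and 0% of the 6978 exons of all genes. Of the H3K27me3 start windows it called 0 of 51 and of the first exons 0 of 57 (0% of 5600 and 0% of 4060). H3K9me3 gave 0 of 48 windows and 0 of 57 exons (0% of 2248 and 0% of 940). At an unadjusted p under 0.05 there were 2 of 35 members with H3K4me3 in first exons (4.30% of all genes tested), 1 of 48 with H3K9me3 in windows (1.78%), and 1 of 57 with H3K9me3 in exons (1.38%), and the quasi-Poisson test likewise called 0 in each case.

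The members with the largest first-exon changes of the same sign in both pairs were, for H3K4me3, Pcdhga10 (log2 change -1.37, SE 0.60), Pcdha8 (1.18, SE 0.95), and Pcdhb1 (-1.07, SE 0.61), each with a limma-voom adjusted p of 0.974. These 3 genes had 24, 11, and 24 fragments over the 4 libraries. For H3K27me3 they were Pcdha7 (-0.53, SE 0.61), Pcdhb13 (-0.51, SE 0.75), and Pcdhac1 (-0.47, SE 0.62), with 12, 2, and 7 fragments in WT 2, the shallowest library. For H3K9me3 they were Pcdhgc3 (-1.37, SE 0.69, from 17 fragments), Pcdhb8 (0.92, SE 0.35), and Pcdha5 (0.89, SE 0.54). None of the genes of these 2 marks had a limma-voom adjusted p below 0.974. The share of unique words in the first exon was 63.0% for Pcdha8, 56.7% for Pcdha7, and 75.6% for Pcdha5.

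The sibling pair as a block changed the calls of 1 of these comparisons. For H3K9me3 first exons, limma-voom with the block called 2 of 57 members, both higher in KO, and these were the 2 genes called among 940 tested (0.213%). Pcdhb19 had 67 fragments in KO 1, 87 in KO 2, 45 in WT 1, and 43 in WT 2, with a blocked log2 change of 0.70 (SE 0.13, adjusted p 0.000151). Pcdhb8 had 47 and 37 against 18 and 23 in the same order, with a blocked change of 0.92 (SE 0.21, adjusted p 0.00552). In scaled levels, KO lay above WT without overlap in 8 of 57 members (14.0%) and in 14.6% of the 940 genes. Neither call held with every deposited fragment (adjusted p 0.499 and 0.34) or with the blocked quasi-Poisson test (adjusted p 0.187 and 0.23). The start windows of Pcdhb19 and Pcdhb8 gave -0.10 (SE 0.44) and 0.47 (SE 0.40) in the same fit. Of the first exon of Pcdhb8, 73.6% of the words are unique in the genome, and of that of Pcdhb19 91.7%.

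Summed over the 57 first exons, H3K9me3 was higher in KO than in WT by 0.31 on the log2 scale, by 0.23 in pair 1 and 0.39 in pair 2, which is below the SD between replicates of 0.45 (exact permutation p 0.667). Of the 57 members, 45 had a positive change and the median was 0.24, and in the beta cluster 20 of 22 with a median of 0.35. Over all 940 genes tested, 51.9% were positive and the median was 0.03. The difference turned to -0.03 when every deposited fragment was counted, with -0.09 in pair 1 and 0.02 in pair 2. The share of listed fragments with repeated coordinates was 33.6% and 34.7% in the KO and 40.5% and 39.4% in the WT libraries, so it was higher in WT, and its part in the difference was not tested.

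H3K27me3 summed over first exons differed by -0.13 with opposite signs in the pairs (0.16 and -0.41), against an SD between replicates of 0.20 (-0.0192 with every deposited fragment). The median over members was -0.04 against -0.23 over all genes tested. Over all genes the pair medians were 0.07 and -0.61, and over members 0.16 and -0.61. Pair 2 holds WT 2, with 200457 distinct fragments, and 0.5 is added to each count. The part of this in the negative medians was not tested. For H3K4me3 the summed first-exon level was higher in KO by 0.28, by 0.38 in pair 1 and 0.18 in pair 2, against an SD of 0.18 (0.12 to 0.45 without 1 library at a time, 0.18 with every deposited fragment). By cluster the first-exon difference was 0.49 in alpha (0.55 and 0.43, SD 0.09), 0.26 in beta (0.38 and 0.14, SD 0.52), and 0.20 in gamma (0.31 and 0.10, SD 0.08), with no test of its own. With every deposited fragment these values were 0.59, 0.09, and 0.09. The start windows differed by -0.11 in alpha (SD 0.40), 0.62 in beta (0.57 and 0.66, SD 0.54), and 0.18 in gamma (0.34 and 0.02, SD 0.13), and with every deposited fragment by 0.07, 0.51, and 0.03, so that the sign in alpha turned. The summed start-window level of all members was higher in KO by 0.16 (0.20 and 0.11) against an SD of 0.03. Both sums over the 57 members had the smallest possible exact permutation p of 0.333. The median change over all genes tested was 0.19 in first exons and 0.22 in start windows, and that over the members tested 0.16 and 0.19.

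**Figure D5:**
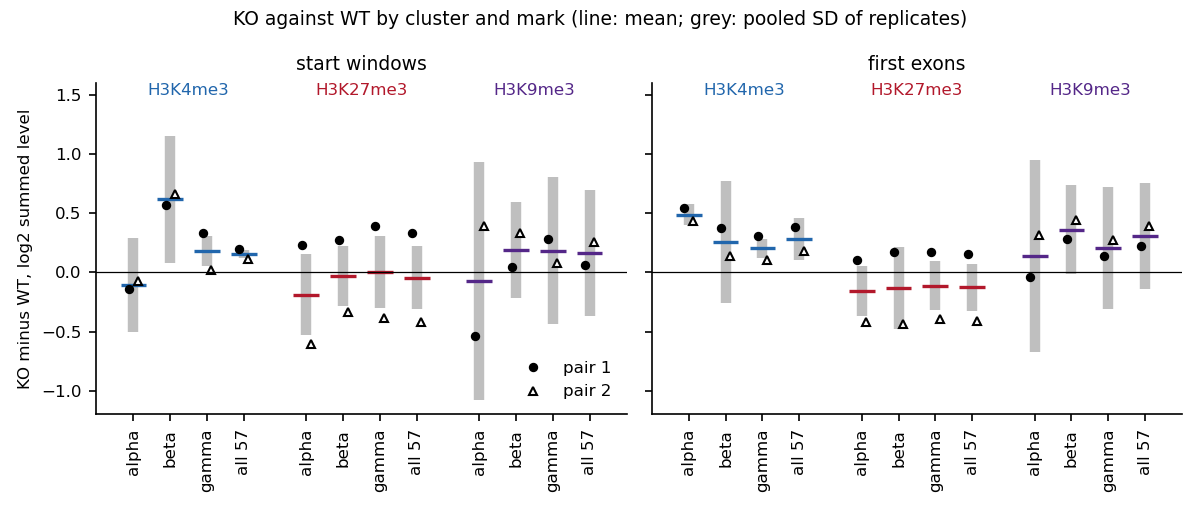
Difference between KO and WT in the log2 summed level by cluster and mark for start windows and first exons, as the mean (colored line), pair 1 (filled circles), pair 2 (open triangles), and the pooled SD of replicates (grey bars). H3K4me3 differences of all 57 members are positive in both pairs (0.16 and 0.28 in the mean), those of H3K27me3 have opposite signs in the pairs, and those of H3K9me3 lie within the SD.

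Fragments over the locus had a higher share of small ones in KO, as over the genome. The log2 ratio of small (at most 120 bp) to large (at least 150 bp) H3K4me3 fragments in the locus was -0.64 in KO 1, -0.54 in KO 2, -2.14 in WT 1, and -1.75 in WT 2, without overlap. KO exceeded WT by 1.35, by 1.5 in pair 1 and 1.21 in pair 2, against an SD between replicates of 0.20 and the smallest possible exact permutation p of 0.333. Over the genome the same libraries differed by 0.88, by 0.79 and 0.97 in the pairs. For H3K27me3 the locus differed by 0.83 (0.71 and 0.94) and the genome by 0.69, and for H3K9me3 by 0.61 (0.63 and 0.60) and 0.55. The H3K27me3 and H3K9me3 replicates of a genotype had SDs of 0.56 and 0.81, and the genotypes overlapped for H3K9me3 (-1.81 and -0.67 in KO, -2.43 and -1.28 in WT, exact permutation p 0.667) but not for H3K27me3 (-2.045 against -2.096 at the nearest). Without 1 library at a time the difference over the locus ran from 0.38 to 1.28 for H3K27me3, from 0.04 to 1.19 for H3K9me3, and from 1.16 to 1.55 for H3K4me3. The IgG control moved the same way. Its ratio over the locus was 0.97 in KO 1, 0.23 in KO 2, 0.16 in WT 1, and -0.75 in WT 2, from 56 to 82 fragments per library, and the genotypes did not overlap. IgG was thus higher in KO by 0.89 over the locus (0.80 and 0.97 in the pairs, SD between replicates 0.57) and by 0.48 over the genome (0.48 in each pair, SD 0.15). Its part in the differences of the marks was not tested, nor was the excess of the locus over the genome for H3K4me3.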

How the data were processed

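Per the labels and the methods, the authors sequenced paired ends of 25 bases, aligned them to mm10 with Bowtie2 (2.3.4.3 in the submitters' processing notes, whereas the methods name another version), and deposited the position and length of each fragment, per library and unscaled. Their unit is thus other than counts, and fragments were counted here. The methods state that duplicates were removed, but repeated coordinates remain, and each was counted once, by midpoint. The first exon is that of the APPRIS transcript. The rule for members uses no measured value, but it, the gene lists, and the tests were chosen with earlier results of these data known.

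KO and WT were compared with limma-voom (limma 3.58.1, R 4.3.3) on all genes with at least 10 fragments, scaled to library size. Marks were compared with IgG by a quasi-Poisson likelihood-ratio test with moderated dispersion, because limma-voom, planned at first, made false calls between libraries of unequal depth on simulated data. Its minimum of 10 fragments was over the mark and IgG libraries together, so genes with few IgG fragments entered through the mark. Summed levels (0.5 fragments added) were compared by exact two-sided permutation tests, with Benjamini-Hochberg values per family. Calls are at an adjusted p under 0.05. Named members are the 2 highest and 2 lowest per mark and cluster, called members, and otherwise the 3 largest changes of the same sign in both pairs. Titles of libraries with the same number share a code, whose meaning the labels do not state, and the methods name 2 sibling pairs, so numbers were taken as pairs. A pair cannot be told apart from what the code marks. Deviations from genotype means within pairs correlated at 0.197 for H3K4me3, 0.212 for H3K27me3, 0.142 for H3K9me3, and 0.0607 for IgG start windows (32 of them for IgG). Intervals cover counting error only. Counting and figures used numba 0.67.0, NumPy 2.4.6, pandas 2.3.3, matplotlib 3.10.9, and SciPy 1.17.1 in Python 3.11.15.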

Additional observations from a re-analysis of the deposited data

How the results depend on the processing

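Of 465 alternative values for 36 results, 413 kept their direction and their side of the threshold. Of the rest, 12 were classed as reversed, 18 as weaker, and 22 as moved. For many of the 36 the side was fixed in advance. Exact permutation tests of KO against WT on sums and fragment ratios cannot give a p below 0.333. Those between clusters cannot give one below 0.125. The count of 413 is thus no measure of how firm the results are. With the animal as a replicate block, the summed differences from IgG had the same sizes (start windows 1.75, 4.7, and 1.38 and first exons 2.38, 4.90, and 1.93 for H3K4me3, H3K27me3, and H3K9me3), but a p of 0.125, the smallest that 4 animals allow. The same block left 0 H3K4me3 windows, 0 H3K4me3 exons, 21 H3K27me3 windows, and 0 H3K27me3 exons above IgG. With the sibling pair as a block, 2 H3K9me3 exons were called between KO and WT. Neither block changed another count of members.

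With every deposited fragment, H3K9me3 exceeded IgG by 1.001 in windows and 1.41 in exons without passing 0.05, and KO minus WT became -0.13 and -0.0349 for H3K9me3 in windows and exons and 0.0178 and -0.0192 for H3K27me3 and 0.11 and 0.18 for H3K4me3. Members above IgG then numbered 7 windows and 13 exons for H3K4me3 (53.5% and 15.2% of all genes) and 9 and 17 for H3K9me3 (4.03% and 6.73%). The difference of alpha and gamma in H3K27me3 became -0.017, and -0.0127 when fragments were assigned by overlap. Windows of 1000 or 250 bp on each side gave 9 or 0 H3K4me3 calls (74.3% and 0%), a minimum of 20 fragments gave 8 exons (13.1%), and limma-voom gave 8 H3K4me3 and 5 H3K9me3 exons (5.76% and 0.917%). Members with at least 90% unique words had an H3K9me3 excess over IgG of 1.23 in windows. Exon shares compare the long first exons of the members with mostly shorter ones, and the causes were not tested.

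Leaving out 1 library at a time, the excess over IgG ran from 1.86 to 2.71 for H3K4me3 exons, from 1.14 to 1.61 for H3K9me3 windows, and from 1.41 to 2.26 for H3K9me3 exons. KO minus WT ran from 0.12 to 0.45 (H3K4me3 exons), -0.24 to 0.15 (H3K27me3 windows), -0.29 to 0.0315 (H3K27me3 exons), -0.26 to 0.58 (H3K9me3 windows), and -0.045 to 0.66 (H3K9me3 exons), and alpha minus gamma from -0.0027 to 0.0393. Calls of H3K4me3 over IgG ran from 2 to 4 windows and 0 to 4 exons. Limma-trend and quantile normalization were not run for marks against IgG. Depth limits H3K27me3 in WT 2 and IgG most.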
